A study of Mus musculus with 32 samples.

Results

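The 10 circadian clock genes *Arntl*, *Npas2*, *Clock*, *Per1*, *Per2*, *Per3*, *Cry1*, *Nr1d1*, *Nr1d2* and *Dbp* were followed in liver, epididymal white fat (eWAT), inguinal white fat (iWAT) and brown fat (BAT) of wild-type (WT) and *Gpr146* knockout (KO) mice. They were taken by name and found as 10 of the 24646 genes in each of the 4 tissue tables. Of these, 3 belong to the positive arm of the clock (*Arntl*, *Npas2* and *Clock*) and 7 to the negative arm and its output. The WT group (*Gpr146* +/+) and the KO group (*Gpr146* -/-, a whole-body knockout made with CRISPR/Cas9) were male littermates on a C57BL/6 background, 20 weeks old. All mice had spent 3 months on a high-fat diet and were collected after an overnight fast. Neither a chow diet nor a fed state is therefore among the groups. The paper reports lower body weight and less fat mass in male KO than in male WT mice on this diet. Adiposity and genotype therefore cannot be told apart here. Each genotype was represented by 4 mice, and every tissue of a mouse by an array of its own, which gives 32 arrays. The hour of collection, and whether the genotypes were collected in turn, are not given in the sources used here.

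The clock is a transcriptional feedback loop that runs in nearly every cell. ARNTL (also called BMAL1) pairs with CLOCK or with NPAS2 and switches on the *Per*, *Cry*, *Nr1d* and *Dbp* genes through E-box sequences. The PER and CRY proteins then hold that pair back, and NR1D1 and NR1D2 (REV-ERB alpha and beta) repress *Arntl* and *Npas2*. The arms therefore tend to peak at different times of day, though not every gene of an arm peaks at the same time. In liver and fat, feeding time and glucocorticoids set the phase of this loop, and the loop drives daily rhythms of lipid and glucose genes. One collection per mouse gives a single point of such a cycle, and a different phase and a different mean level cannot be told apart here.

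Values are log2 expression values, so that a difference of 1 is a doubling, and tests were run within a tissue with limma over all 24646 genes at an adjusted p below 0.05. *Gpr146*, the targeted gene, lay lower in every KO array than in every WT array of the same tissue. Its log2 difference was -1.77 in liver (adjusted p = 6.55e-06), -1.53 in eWAT (0.00823), -1.55 in iWAT (0.221) and -1.16 in BAT (0.0727). Markers of the labelled tissue were high where they belong, with hepatocyte means of 10.45 to 10.68 in liver and adipocyte means of 8.81 to 10.10 in the fat depots. The mean of 5 B cell markers was 8.05 and 7.98 in WT 1 and 2 and 7.61 and 5.85 in KO 2 and 4 of iWAT, against 3.15 to 3.42 in the other iWAT arrays. The mean of 5 skeletal muscle markers was 6.76 and 7.81 in WT 2 and 3 and 7.93 in KO 2 of BAT, against 3.06 to 4.06 in the other BAT arrays. The titles of the KO livers name both genotypes, and they were used as KO because their genotype label says so.

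Stretches of 5 promoters are shown because they hold motifs through which the clock is known to act on its own negative arm. RefSeq windows (GRCm38.p6) matched 9 of the 10 members, with 13 windows, and *Per2* was not matched. The 250 bases before each start were searched on both strands for 6 motifs, none of which overlap in the stretches below. Capitals mark the E-box (CACGTG), the E-prime-box (CACGTT, or AACGTG on the other strand), the D-box (TTATGTAA or TTACGTAA) and the core of the ROR and REV-ERB element (AGGTCA, or TGACCT on the other strand). All stretches run 5′ to 3′ on the strand of the gene.
Per3, chr4:151044791-151044895, minus strand: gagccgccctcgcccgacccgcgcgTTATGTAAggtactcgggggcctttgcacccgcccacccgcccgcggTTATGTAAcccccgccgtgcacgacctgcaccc
Per1, chr11:69098758-69098842, plus strand: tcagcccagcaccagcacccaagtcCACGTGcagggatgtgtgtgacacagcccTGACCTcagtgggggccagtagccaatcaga
Cry1, chr10:85185084-85185158, minus strand: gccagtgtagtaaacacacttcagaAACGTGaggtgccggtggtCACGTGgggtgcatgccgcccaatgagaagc
Nr1d2, chr14:18239153-18239208, minus strand: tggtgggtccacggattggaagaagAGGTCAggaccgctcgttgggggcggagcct
Nr1d1, chr11:98775378-98775430, minus strand: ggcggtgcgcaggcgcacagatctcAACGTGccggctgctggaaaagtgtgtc

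*Per3* held 2 D-boxes, the site that DBP itself binds, which begin 205 and 158 bases before its start. A D-box occurs in 0.931% of the 32851 windows searched. *Cry1* held an E-box 60 bases and an E-prime-box 79 bases before its start, and *Per1* an E-box 166 bases before its start, where 6.02% of windows hold an E-box and 3.85% an E-prime-box. The core of the ROR and REV-ERB element, present in 14% of windows, was found in *Per1*, *Nr1d2* and *Clock*. A cAMP response element (TGACGTCA, in 1.55% of windows) and a glucocorticoid response element (in 0.00913%) were found in no member. A match is a description of letters in this window, and their absence from it says only that.

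In eWAT, the 2 positive-arm genes *Arntl* and *Npas2* fell, the 2 negative-arm genes *Per3* and *Cry1* rose, and these 4 of 10 members passed the threshold where 15.2% of all genes did. By direction, 2 of 10 members were higher (4.57% of all genes) and 2 of 10 lower (10.7%). Over all genes 1126 were higher and 2632 lower, and with quantile normalization 1830 and 1910, when 3 members were higher and none lower. All 3 positive-arm estimates were below 0 and all 7 estimates of the other arm above 0, with medians of -1.08 and 0.55 against 0.03 for all genes. A p below 0.05 before adjustment was found for 8 of 10 members and for 7338 of all 24646 genes.

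*Arntl*, the activator whose loss stops the clock, measured 5.78, 5.39, 4.87 and 5.40 in WT 1 to 4 and 3.41, 5.16, 4.41 and 3.69 in KO 1 to 4. KO 1, 3 and 4 were below every WT array, whereas KO 2 lay among them. The mean went from 5.36 ± 0.37 (SD, n = 4) to 4.17 ± 0.78 (SD, n = 4), a log2 difference of -1.19 (95% confidence interval -1.98 to -0.41, adjusted p = 0.0484). *Npas2*, which can take the place of *Clock*, measured 4.90, 4.51, 4.37 and 4.68 in WT and 2.91, 4.50, 3.74 and 3.00 in KO. Its arrays fell in the same order, with KO 2 again at the WT level, and the difference was -1.08 (-1.79 to -0.37, adjusted p = 0.0486). *Clock*, the usual partner of *Arntl*, lay between 8.37 and 8.48 in WT and between 8.04 and 8.57 in KO, and its difference of -0.14 did not pass (adjusted p = 0.454).

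*Per3*, a period gene of the negative arm, measured 4.995, 5.005, 5.66 and 5.20 in WT and 7.19, 5.57, 6.52 and 6.95 in KO. Only KO 2 overlapped with WT. *Per3* showed the largest difference among the members, 1.34 (0.63 to 2.06, adjusted p = 0.0224). *Cry1*, the repressor that acts late in the cycle, measured 3.56, 3.63, 3.32 and 3.50 in WT and 4.55, 3.77, 3.99 and 3.91 in KO, with every KO array above every WT array. Its difference was 0.55 (0.19 to 0.91, adjusted p = 0.0460).

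The other 5 members of the negative arm and output did not pass in eWAT. *Nr1d1*, the REV-ERB alpha repressor, measured 8.40, 7.62, 8.24 and 8.30 in WT and 9.38, 8.44, 8.43 and 9.25 in KO, with no overlap between the groups and a difference of 0.74 (0.16 to 1.31, adjusted p = 0.0846). *Cry1* and *Nr1d1* were thus the 2 members whose groups did not overlap, where 21.6% of all genes had such groups. *Dbp*, a transcription factor that carries the rhythm to metabolic genes, measured 6.64, 6.80, 7.51 and 7.03 in WT and 8.30, 6.90, 7.70 and 8.01 in KO, and its difference was 0.73 (0.08 to 1.39, adjusted p = 0.126). *Per1*, which also responds acutely to glucocorticoids, differed by 0.51 (0.11 to 0.91, adjusted p = 0.0840) and *Per2*, its partner in the repressor complex, by 0.52 (0.03 to 1.01, adjusted p = 0.145). *Nr1d2*, the paralog of *Nr1d1*, differed by 0.11 (-0.43 to 0.66, adjusted p = 0.791). In both *Per1* and *Per2*, KO 1 was the highest and KO 2 the lowest of the KO arrays.

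**Figure D1:**
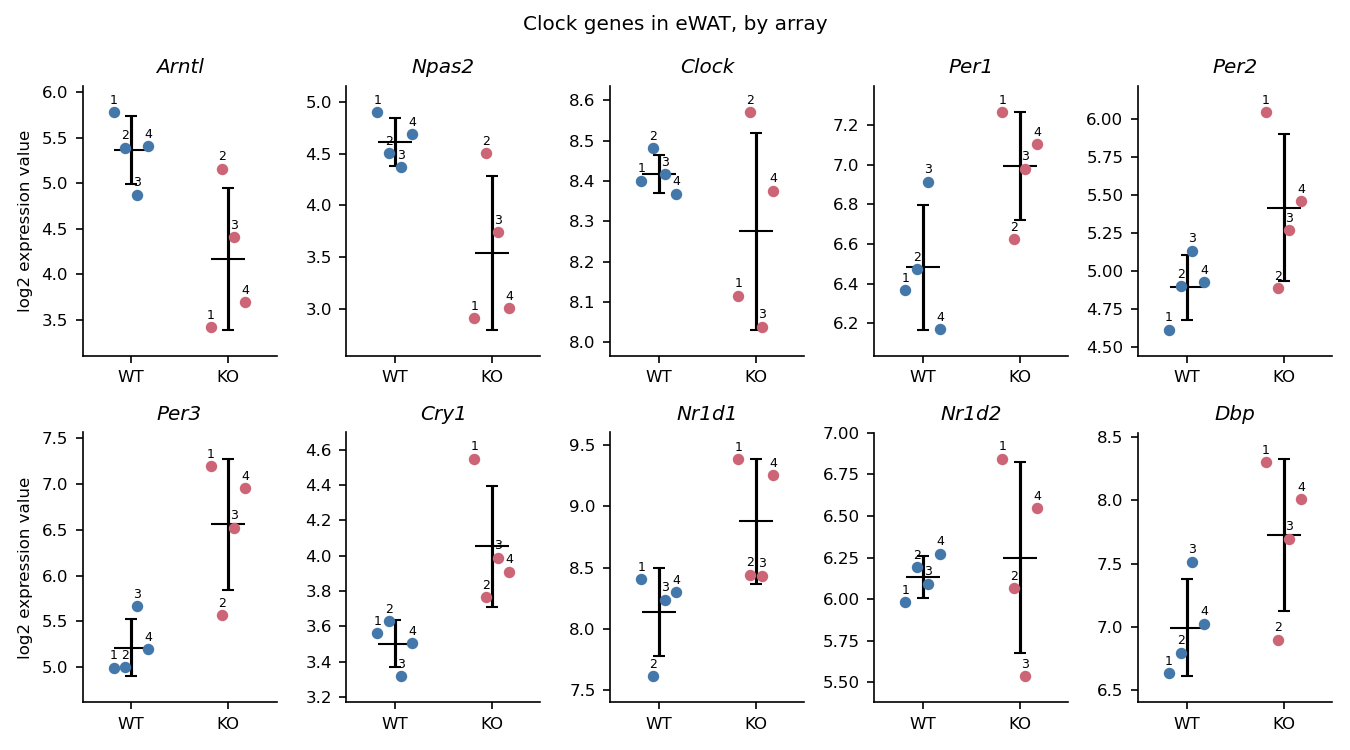
Log2 expression value (vertical axis) of the 10 clock genes in eWAT, 1 panel per gene with its own range. Points are arrays numbered by mouse, horizontal bars the mean and vertical bars the SD of 4 arrays. KO 1, 3 and 4 lie below all WT arrays in *Arntl* and *Npas2* and above all of them in *Per3*, *Cry1* and *Dbp*, and KO 2 lies at or near the WT values in those genes.

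The calls in eWAT rested on few arrays. Without KO 2, 8 members passed (6 higher, 2 lower), where 22.0% of all genes did, and the differences grew to -1.52 for *Arntl*, -1.40 for *Npas2*, 1.67 for *Per3* and 1.01 for *Dbp* (adjusted p = 0.00265, 0.00128, 0.000374 and 0.00857). Without WT 1, WT 2, WT 4, KO 1 or KO 4, no member passed. Over all genes, 380 to 641 were higher and 1068 to 1659 lower in those fits, against 1126 and 2632 with all arrays. These counts were 607 and 1601 without WT 3, and 1096 and 2115 without KO 3. *Per3* and *Per1* passed without WT 3, and *Per3* alone without KO 3.

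The mean of 5 macrophage markers (*Cd68*, *Itgam*, *Adgre1*, *Lyz2* and *Csf1r*) moved with these genes in eWAT. It was 9.28, 9.21, 9.42 and 9.26 in WT and 6.52, 8.86, 7.36 and 6.79 in KO, and 5 of 5 markers were lower past the threshold. KO 2, which had *Arntl*, *Npas2* and *Per3* near the WT values, also had a macrophage mean near that of WT, and KO 1 was at the far end of all 4. Of 5 adipocyte markers 4 were higher and 1 lower, with means of 9.05 to 9.47 in WT and 9.70 to 10.05 in KO, and here KO 2 had 9.74. With the macrophage mean as a covariate, the differences were 0.15 for *Arntl* (standard error 0.35, adjusted p = 0.948), 0.23 for *Npas2* (0.25, 0.862), 0.09 for *Per3* (0.29, 0.967) and 0.09 for *Cry1* (0.23, 0.954), and none of all 24646 genes passed. Since no KO array reached the lowest WT macrophage mean, macrophage content and genotype cannot be told apart in this fit. In such bulk samples, fewer cells of a type and less RNA per cell cannot be told apart either.

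**Figure D2:**
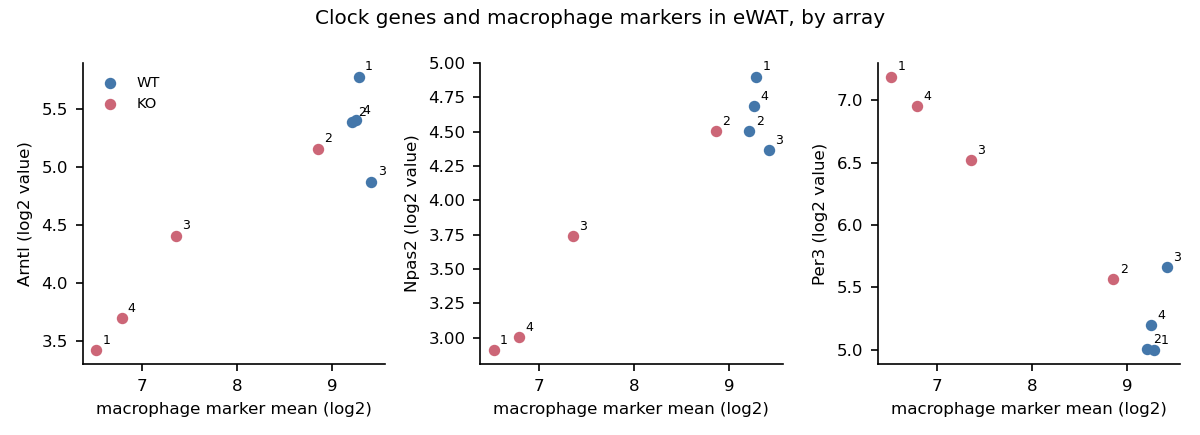
Log2 value of *Arntl*, *Npas2* and *Per3* (vertical axes) against the mean log2 value of 5 macrophage markers (horizontal axis) in eWAT, 1 point per array, numbered by mouse. The WT arrays lie at marker means of 9.21 to 9.42, and KO 2 at 8.86 is the KO array nearest to them in all 3 panels.

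In liver, 0 of 10 members passed the threshold, where 0.661% of all genes did (40 higher and 123 lower, or 54 and 102 with quantile normalization). Before adjustment, limma gave 4 members and 3271 of all 24646 genes a p below 0.05. *Nr1d1* measured 7.04, 7.14, 7.19 and 7.01 in WT and 7.35, 7.81, 7.36 and 7.80 in KO, and *Cry1* 4.32, 3.87, 4.01 and 3.87 in WT and 3.81, 3.10, 3.70 and 3.54 in KO. Every KO liver was above every WT liver in *Nr1d1* and below it in *Cry1*, 2 of 10 members without overlap where 7.78% of genes had none. Their differences were 0.48 (0.22 to 0.74, adjusted p = 0.106) and -0.48 (-0.81 to -0.14, adjusted p = 0.201). *Per2* differed by -0.59 (-1.15 to -0.03, adjusted p = 0.351), with 2 of the KO livers, KO 2 at 4.93 and KO 4 at 4.90, below the WT range of 5.95 to 6.26 and the other two, at 6.02 and 6.08, within it. *Npas2* differed by 0.26 (0.00 to 0.53, adjusted p = 0.372), and the intervals of *Arntl*, *Clock*, *Per1*, *Per3*, *Nr1d2* and *Dbp* included 0. KO 2 had the highest *Arntl* of all 8 livers, at 4.33. The macrophage marker mean was 5.04, 4.75, 5.22 and 4.59 in WT livers and 3.79, 4.91, 3.83 and 4.04 in KO livers, again with KO 2 nearest to WT. With this mean as a covariate no member passed either, and over all genes 13 were higher and 15 lower.

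In iWAT, 0 of 10 members passed, as did 0% of all genes. limma gave 1 member, *Per3*, and 3803 of all genes a p below 0.05 before adjustment, and the methods' t-test with Benjamini-Hochberg adjustment also called 0 members. *Per3* measured 6.20, 5.91, 6.85 and 6.31 in WT and 7.25, 6.35, 7.34 and 6.77 in KO, with overlapping groups and a difference of 0.61 (0.03 to 1.19, adjusted p = 0.309). *Dbp* measured 7.38, 6.95, 7.82 and 7.34 in WT and 8.53, 7.47, 8.03 and 7.67 in KO, a difference of 0.55 (-0.01 to 1.11, adjusted p = 0.330). *Arntl* measured 5.70, 5.84, 4.42 and 5.22 in WT and 4.03, 5.54, 4.13 and 5.40 in KO, a difference of -0.52 (-1.48 to 0.44, adjusted p = 0.543). WT 3, KO 1 and KO 3 had the lowest *Arntl* and the highest *Per3* and *Dbp* of the 8 arrays, and none of these 3 carried lymphocyte markers. The part of the lymphocyte content in these values was not tested beyond 2 kinds of fit, in which no member passed either. The fit without the arrays with lymphocyte markers kept only 4 arrays, and over all genes 205 were higher and 711 lower. With the B cell mean as a covariate, 18 of all genes were higher and 10 lower. No member had groups that did not overlap, where 8.15% of genes did.

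In BAT, 0 of 10 members passed, where 0.0284% of all genes did, and none had groups without overlap (7.23% of genes). The estimates of 9 members were below 0 and 9 of 10 lay between -0.22 and 0.00, the exception being *Per2*. *Per2* measured 5.19, 5.84, 5.75 and 5.98 in WT and 5.19, 4.52, 5.24 and 5.62 in KO, a difference of -0.54 (-1.06 to -0.03, adjusted p = 0.362) with KO 2, an array with muscle markers, the lowest. The 95% confidence intervals of *Dbp* (-0.38 to 0.38) and *Nr1d1* (-0.40 to 0.38) bound what these 8 arrays could show. The mean of 5 brown adipocyte markers lay between 8.17 and 8.62 in WT and between 7.35 and 7.66 in KO, with 0 of 5 past the threshold.

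**Figure D3:**
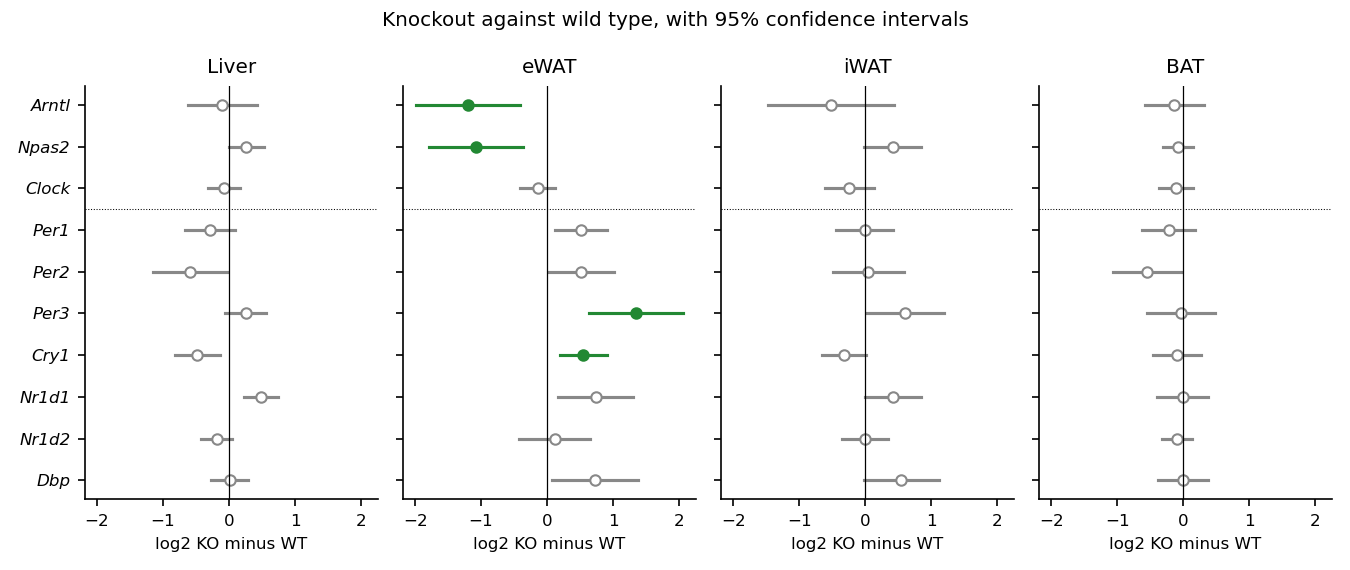
Log2 difference of KO minus WT (horizontal axis) with its 95% confidence interval for the 10 clock genes in 4 tissues, 4 arrays per group. Filled green points passed an adjusted p of 0.05 (*Arntl*, *Npas2*, *Per3* and *Cry1* in eWAT), open grey points did not, and the dotted line parts the positive arm above from the negative arm and output below.

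Whether the KO minus WT difference of the clock genes varied between tissues was tested on the differences between 2 tissues of the same mouse, since the labels number the mice alike in every tissue. Against liver, the effect in eWAT differed for 4 of 10 members, where 8.37% of all genes did. The liver effect minus the eWAT effect was 1.09 for *Arntl* (adjusted p = 0.0223), -1.03 for *Cry1* (0.00664), -1.11 for *Per2* (0.0277) and -1.09 for *Per3* (0.0208). *Cry1* had estimates of opposite sign in these tissues, and passed this test in all 8 fits that left out 1 mouse, whereas *Arntl* passed in 4 of them and *Per2* and *Per3* in 3 each. Against BAT, the effect in eWAT differed for 3 of 10 members, where 6.93% of genes did. The eWAT effect minus the BAT effect was 1.37 for *Per3* (adjusted p = 0.0137), 1.07 for *Per2* (0.0175) and -1.06 for *Arntl* (0.0197). Without pairing of the tissues within a mouse, 2 and 0 members passed, where 2103 and 1474 of all 24646 genes did. Between liver and eWAT, 1 member passed without WT 1, WT 2, KO 1 or KO 4 and 2 without WT 4. In those fits 918 to 1138 of all genes passed. Between eWAT and BAT, none passed without WT 4 and 5 without WT 3, where 613 and 1153 of all genes did. Without KO 2, 7 members differed between liver and eWAT, where 12.7% of genes did, and 5 between eWAT and BAT, where 10.2% did.

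Between eWAT and iWAT, 0 of 10 members and 0% of genes passed. The largest differences between these depots were -1.49 for *Npas2* (-2.22 to -0.77, adjusted p = 0.137) and 0.86 for *Cry1* (0.42 to 1.31, adjusted p = 0.158). limma without adjustment gave 5 members a p below 0.05 there, and 2 members passed without KO 2, where 1.63% of genes did. No member passed between liver and iWAT (0.00406% of genes), between liver and BAT (0.0893%) or between iWAT and BAT (0%). There, limma without adjustment gave 1, 2 and 3 members a p below 0.05. The share of all genes with such a p was not counted for these pairs or for eWAT and iWAT.

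The order of the arms was summed for each array as the mean of the 7 negative-arm and output genes minus the mean of the 3 positive-arm genes. In eWAT this score was -0.57, -0.32, 0.24 and -0.24 in WT and 2.27, -0.04, 0.95 and 1.72 in KO, a mean of -0.22 ± 0.34 (SD, n = 4) against 1.23 ± 1.00 (SD, n = 4). KO 1, 3 and 4 were above all WT arrays and KO 2 lay among them. In liver the score was 2.0997, 2.06, 2.09 and 1.87 in WT and 2.27, 1.41, 2.30 and 1.59 in KO. In iWAT it was 0.62, 0.57, 1.79 and 0.70 in WT and 1.92, 0.71, 1.58 and 0.67 in KO, and in BAT 1.91, 1.96, 2.21 and 2.26 in WT and 2.36, 1.54, 1.95 and 2.38 in KO. The groups overlapped in those 3 tissues, and the KO minus WT differences were -0.14, 0.30 and -0.03 against 1.45 in eWAT. The pooled SD within groups was 0.33 in liver, 0.75 in eWAT, 0.60 in iWAT and 0.31 in BAT. With the macrophage marker mean as a covariate the difference was -0.28 in eWAT and -0.51 in liver. Without KO 2 it was 1.87 in eWAT, 0.02 in liver and 0.14 in BAT. In iWAT it was 0.59 without WT 3, 0.07 without KO 1 and 0.51 without the arrays with lymphocyte markers.

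KO arrays spread more widely than WT arrays in liver (SD 0.46 and 0.11), eWAT (1.00 and 0.34) and BAT (0.40 and 0.18) and about equally in iWAT (0.63 and 0.58). Mouse KO 2 had the lowest score of the 4 KO arrays in liver, eWAT and BAT and the next to lowest in iWAT. Mouse KO 1 had the highest KO score in eWAT and iWAT and the next to highest in liver and BAT. This is a description of 4 mice whose tissues share the animal and the hour of collection.

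**Figure D4:**
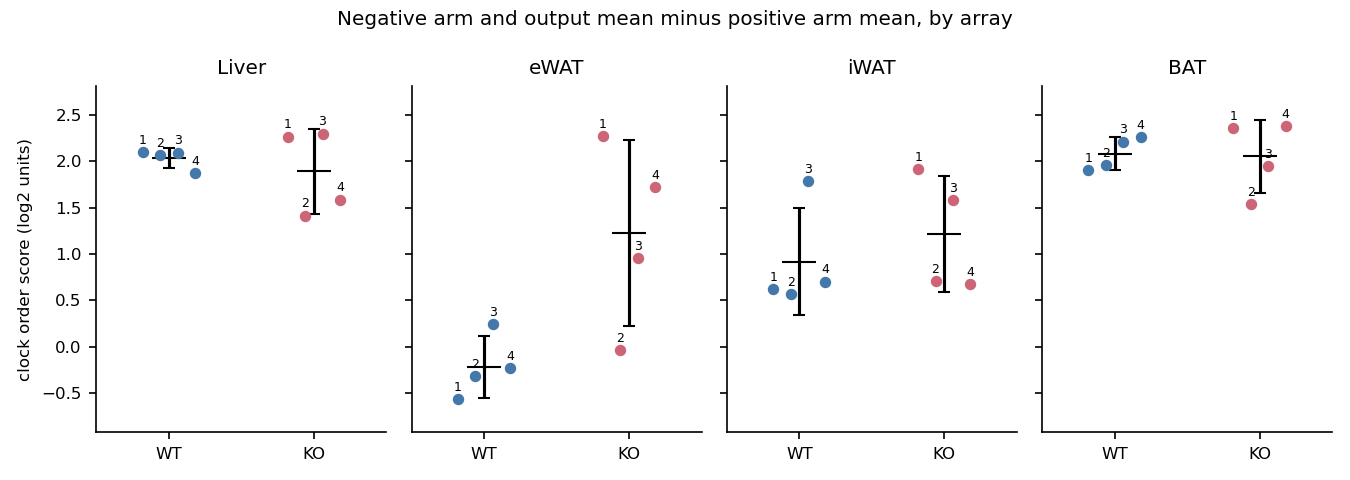
Clock order score in log2 units (vertical axis: mean of 7 negative-arm and output genes minus mean of 3 positive-arm genes) in 4 tissues. Points are arrays numbered by mouse, horizontal bars the mean and vertical bars the SD of 4 arrays. KO 1, 3 and 4 lie above all WT arrays in eWAT, and the groups overlap in the other tissues.

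Between mice of one genotype, some members varied with *Arntl*. After the genotype means were removed, *Arntl* was correlated with each other member over the 8 arrays of a tissue, 36 relations in all, with permutation within genotype and adjusted p-values over the 36. In eWAT 5 of 9 relations passed, in iWAT 4 of 9, and in liver and BAT none, counted by Pearson's r. The tissues were not compared in this by a test. How many of all genes vary with *Arntl* as strongly was not counted, so these counts do not set the members apart. In eWAT *Npas2* rose and fell with *Arntl* (Pearson's r = 0.98, permutation p = 0.00174, the smallest the 576 permutations can give, adjusted p = 0.025, Spearman's rho = 0.98, permutation p = 0.00347). *Per3* ran against it (r = -0.97, permutation p = 0.00347, adjusted p = 0.025, rho = -0.93, permutation p = 0.0104), as did *Dbp* (r = -0.97, adjusted p = 0.025 by permutation, rho = -0.93). *Per2* (r = -0.94) and *Per1* (r = -0.83) passed too, whereas *Cry1*, which differed between the genotypes, did not (r = -0.51, permutation p = 0.403).

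Without the 2 arrays farthest from the median of *Arntl*, r in eWAT was 0.93 for *Npas2*, -0.92 for *Per3* and -0.91 for *Dbp*. In iWAT *Per3* (r = -0.95, rho = -0.95), *Dbp* (r = -0.91, rho = -0.93), *Per2* (r = -0.84, rho = -0.79) and *Nr1d2* (r = -0.81, rho = -0.81) ran against *Arntl* with adjusted permutation p-values between 0.025 and 0.0486. Their r without the 2 farthest arrays was -0.92, -0.82, -0.71 and -0.64. The macrophage mean in eWAT and the lymphocyte markers in iWAT differed between the same arrays, and the 4 iWAT arrays with and the 4 without lymphocyte markers were too few for a value within each. In BAT *Clock* had r = 0.81 with *Arntl* (permutation p = 0.0226, adjusted p = 0.0812) and rho = 0.95 (permutation p = 0.00347, adjusted p = 0.0417), so that it passed by rank alone, and r was 0.92 without the 2 farthest arrays. Without those 2 arrays of BAT, r was -0.95 for *Per3*, -0.81 for *Per2* and -0.78 for *Dbp*, against -0.21, -0.38 and -0.39 with all 8. In liver the largest was -0.71 for *Per3* (permutation p = 0.260, adjusted p = 0.467).

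**Figure D5:**
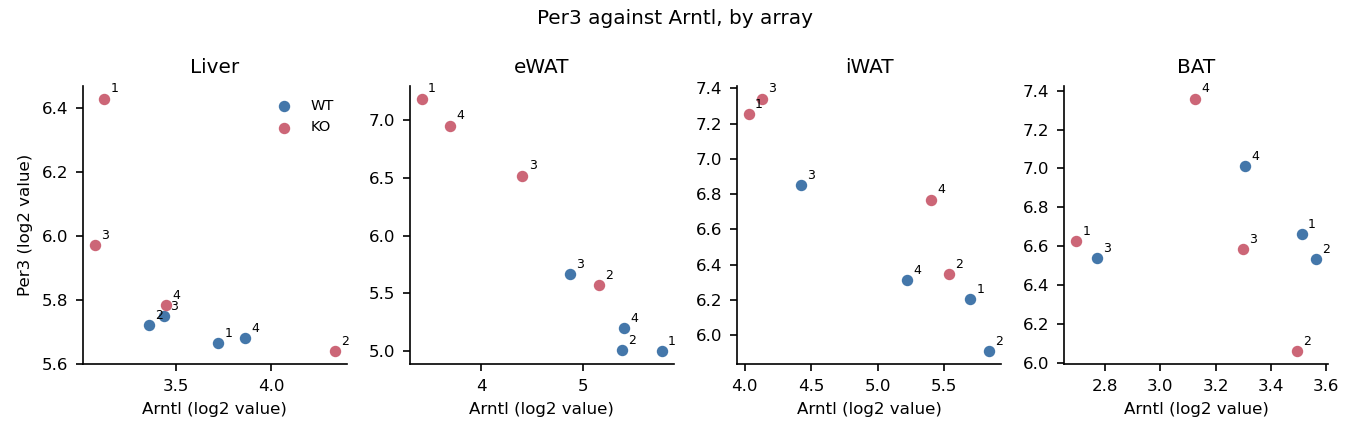
Log2 value of *Per3* (vertical axis) against that of *Arntl* (horizontal axis) in 4 tissues, 1 point per array, numbered by mouse, each panel with its own range. In eWAT and iWAT the arrays with low *Arntl* had high *Per3* (r = -0.97 and -0.95 after the genotype means were removed), and the relations in liver and BAT did not pass.

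A member in one tissue was also set against the same member in another tissue of the same mouse, 60 relations in all. None passed after adjustment, 3 had a permutation p below 0.05 before it, and r was above 0 in 48 of 60. The smallest permutation p was that of *Arntl* between eWAT and BAT (r = 0.84, rho = 0.83, permutation p = 0.0139, adjusted p = 0.608), and its r was 0.76 without the 2 farthest mice.

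Over all 32 arrays, each centred on its tissue and genotype, the gene most like *Dbp* among all 24646 was *Per3* (r = 0.86), followed by *Ciart* (0.81, listed under its older symbol *Gm129*), a repressor of the ARNTL and CLOCK pair. *Il15ra*, *Fdx1* and *COX3* came next (0.79, 0.76 and 0.76). *Arntl* stood at rank 24637 from the top with r = -0.78. The 5 genes most like *Arntl* were *Cd180* (0.84), *Mcm5* (0.82), *Plaur*, *Arhgap25* and *Cd53* (0.81 each), of which *Cd180* and *Cd53* are leukocyte surface proteins. *Per3* and *Dbp* were among the genes least like *Arntl* (r = -0.78 each, ranks 24643 and 24640). Of the other members, *Clock* and *Npas2* stood at ranks 508 and 854 (r = 0.61 and 0.56). *Per2*, *Nr1d2*, *Per1*, *Cry1* and *Nr1d1* stood at 24614, 24405, 22941, 22052 and 18925, with r from -0.71 to -0.28. In likeness to *Dbp*, *Per2*, *Nr1d2*, *Nr1d1*, *Per1* and *Cry1* stood at 30, 493, 1493, 2760 and 5235, with r from 0.68 to 0.27. *Clock* and *Npas2* stood at 24356 and 24230 there (r = -0.63 and -0.60). These arrays share mice across tissues, so the coefficients carry no p.

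The levels in WT mice were set side by side across tissues, although the tissues are in 4 tables whose normalization is not given and whose array medians ranged from 2.82 in BAT to 3.73 in iWAT. *Npas2* was highest in eWAT (4.61 ± 0.23, SD, n = 4), then in iWAT (3.44 ± 0.26), without overlap, and lowest in BAT (2.20 ± 0.13) and liver (2.20 ± 0.17), which overlapped. *Arntl* was higher in eWAT (5.36 ± 0.37) and iWAT (5.30 ± 0.64), which overlapped, than in liver (3.60 ± 0.24) and BAT (3.29 ± 0.36), which overlapped too. *Clock* went from 8.42 in eWAT and 8.41 in iWAT over 7.96 in BAT to 6.80 in liver, where only the 2 white depots overlapped.

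In the negative arm, eWAT was the lowest tissue for 5 of 7 members. *Per2* lay between 4.62 and 5.13 in eWAT, below every WT array of liver (6.07 ± 0.14), BAT (5.69 ± 0.35) and iWAT (5.60 ± 0.51), which overlapped each other. *Nr1d2* lay between 5.98 and 6.27 there, below liver (6.78 ± 0.09), iWAT (6.94 ± 0.30) and BAT (7.39 ± 0.14). *Per3* was highest in BAT (6.69 ± 0.23) and iWAT (6.32 ± 0.39), followed by liver (5.70 ± 0.04) and eWAT (5.22 ± 0.31), with overlap between liver and eWAT. *Nr1d1* was lowest in liver (7.10 ± 0.08) and overlapped between neighbours in the order iWAT (8.86 ± 0.38), BAT (8.43 ± 0.35) and eWAT (8.14 ± 0.36). *Cry1* was highest in iWAT (4.34 ± 0.21) and lowest in eWAT (3.50 ± 0.13). The share of genes lower than it, taken over WT and KO arrays together, was smallest in iWAT (56.9%) and largest in liver (62.9%). These orders come from different sets of arrays, so they do not show whether the order of *Cry1* depends on the scale. *Dbp*, from 7.79 ± 0.16 in liver to 6.99 ± 0.38 in eWAT, and *Per1*, from 6.998 ± 0.38 in iWAT to 6.18 ± 0.21 in liver, overlapped between all neighbours in their order.

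Further genes of the clock loop, 20 in all, were counted from a list of partners, kinases and ligases of the core proteins. In eWAT 3 rose and 1 fell, where 4.57% of all genes rose and 10.7% fell, with a median of 0.23. *Cry2*, the second cryptochrome, rose by 0.56 (adjusted p = 0.0424) and *Arntl2*, a paralog of *Arntl*, by 0.47 (0.0332). *Cipc*, an inhibitor of CLOCK, fell by 0.58 (0.0184). Of the 8 fits that left out 1 eWAT array, *Cry2* and *Arntl2* passed in 1 each and *Cipc* in 4. None of the 20 passed in liver, iWAT or BAT. The smallest p-values were those of *Prkaa1* (-0.43, adjusted p = 0.180) and *Rora* (-0.21, adjusted p = 0.199) in liver, *Bhlhe41* (0.98, adjusted p = 0.225) and *Bhlhe40* (0.61, adjusted p = 0.253) in iWAT, and *Bhlhe41* (0.64, adjusted p = 0.125) and *Prkaa1* (-0.32, adjusted p = 0.213) in BAT.

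Among 19 genes known to cycle under clock control, 4 rose and 3 fell in eWAT (4.57% and 10.7% of all genes), with a median of 0.02. *Hlf*, a PAR bZIP factor of the same family as *Dbp*, rose by 0.44 (adjusted p = 0.0217), *Pfkfb3*, a regulator of glycolysis, by 0.82 (0.0190) and *Por*, the electron donor of cytochromes P450, by 0.73 (0.0260). *Wee1*, a kinase that holds back mitosis, fell by 1.08 (0.0197) and *Lonrf3* by 1.25 (0.00994). *Lonrf3* passed in all 8 fits that left out 1 eWAT array, *Wee1* in 4, *Hlf* and *Pfkfb3* in 3 each and *Por* in 2. In liver 2 of 19 fell, *Nampt*, which makes a precursor of NAD, by 0.58 (adjusted p = 0.0371) and *Lonrf3* by 0.47 (0.0468), and none rose, where 0.661% of all genes passed. *Nampt* passed in 2 and *Lonrf3* in 1 of the 8 fits that left out 1 liver. None passed in iWAT or BAT, where *Tef* in iWAT (0.49, adjusted p = 0.221) and *Noct* in BAT (-1.33, adjusted p = 0.0901) had the smallest p-values.

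Of 12 genes that glucocorticoids induce, 1 rose and 3 fell in eWAT (4.57% and 10.7% of all genes), with a median of -0.40. *Klf15*, a regulator of amino acid and lipid use, measured 4.57, 3.38, 4.11 and 4.29 in WT and 6.29, 5.43, 6.04 and 6.39 in KO, without overlap and with KO 2 apart from WT as well, and rose by 1.95 (adjusted p = 0.00813). *Pdk4*, which spares glucose in fasting, fell by 1.17 (0.0316), *Mt2*, a metallothionein, by 0.93 (0.0293) and *Lcn2*, an iron-siderophore carrier, by 0.63 (0.00971). *Klf15* and *Lcn2* passed in all 8 fits that left out 1 eWAT array, and *Pdk4* and *Mt2* in 2 each. None of the 12 passed in the other tissues, where the medians were -0.27 in liver, -0.30 in iWAT and -0.32 in BAT, and those of all genes 0.01, 0.02 and 0.00. *Klf15* differed by 1.14 in iWAT (adjusted p = 0.221) and by 0.66 in BAT (adjusted p = 0.137), *Mt2* by -1.16 in iWAT (0.221), *Zbtb16* by -0.69 in liver (0.112) and -0.77 in BAT (0.152), and *Lcn2* by -1.23 in liver (0.209).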

How the data were processed

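The authors hybridized biotin-labelled RNA (100 ng total RNA) to Affymetrix Mouse Gene 2.1 ST arrays and deposited a table of log2 values for each tissue, with a single value for a gene symbol in a mouse. The normalization and the summary of probes are not given in the sources used here, and 840 genes had been averaged over probe sets. Entries with a blank name or a name turned into a number were left out (1 or 2 per table). Groups came from the labels. KO and WT were compared per tissue, and within-mouse differences between tissues, with limma 3.58.1 (R 4.3.3) and Benjamini-Hochberg adjustment over 24646 genes, at 0.05. Correlations used exact permutation within genotype (scipy 1.17.1). The number of arrays limits the precision. The members, gene lists and marker lists were chosen with earlier results of these data known. Genes named are *Gpr146*, the 10 members, up to 5 per list and tissue past the threshold (by adjusted p) or else up to 2 with the smallest p, the 5 most like *Dbp* and *Arntl*, and markers. Of the genes this rule names in eWAT, 1 is counted but not reported by name. Symbols and promoter windows came from RefSeq GRCm38.p6. The alternatives were quantile normalization, equal array medians, dim genes left out, a robust prior with a trend, array weights, the methods' t-test, a block for the replicate number, each array left out, a score without *Npas2* or *Dbp*, and marker covariates or arrays left out that were chosen after seeing the data. The procedure was tested on simulated data. Figures were drawn with matplotlib 3.10.9.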

Additional observations from a re-analysis of the deposited data

Results flagged for a closer look

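Of 88 groups of 4 arrays looked at (10 members and the score in 8 groups), 3 held 1 array far from the other three, where chance gives about 1 in 20. The clock order score of WT 3 in iWAT was 1.79 against 0.57 to 0.70 in the other WT arrays. Of these, WT 1 and 2 had B cell marker means of 8.05 and 7.98, against 3.25 in WT 3 and 3.15 in WT 4. The part of the lymphocyte content in this was not tested. In liver the score of WT 4 was 1.87 against 2.06 to 2.0997, and *Nr1d2* of WT 1 in BAT was 7.18 against 7.44 to 7.49.

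The knockout effect differed between tissues in 7 of 60 tests of a member and a pair of tissues. All 7 were between liver and eWAT or between eWAT and BAT, where 8.37% and 6.93% of all genes differed. In the other pairs 0% to 0.0893% of all genes did. The differences, liver minus eWAT, were 1.09 for *Arntl*, -1.03 for *Cry1*, -1.11 for *Per2* and -1.09 for *Per3*, and, eWAT minus BAT, -1.06 for *Arntl*, 1.07 for *Per2* and 1.37 for *Per3*. The macrophage marker mean separated the genotypes in eWAT, and ranged from 4.59 to 5.22 in WT and 3.79 to 4.91 in KO livers and from 5.02 to 5.70 and 4.64 to 5.41 in BAT. Its part in these differences was not tested.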

How the results depend on the processing

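Against 4 clock genes past the threshold in eWAT, 1 passed with array medians made equal (*Per3*) and 3 with quantile normalization (*Per1*, *Per3* and *Cry1*). The same 4 as in the main fit passed with a robust prior with a trend and with dim genes left out. With array weights 8 passed, and with the replicate number as a block 2 (*Per3* and *Nr1d1*). The methods' t-test called 0 after adjustment and 5 before it. With macrophage markers as a covariate 0 passed, and with each array left out 0 to 8. Over all genes, 1126 were higher and 2632 lower in the main fit. These counts were 1164 and 2463 with equal medians, 1830 and 1910 with quantile normalization, 1970 and 3325 with array weights, and 953 and 2452 with the block. They were 1125 and 2487 with the robust prior, and 1082 and 2747 of 12323 genes with dim genes left out. The t-test gave 19 and 19 after adjustment and 2927 and 3871 before it, and the fit without KO 2 gave 1924 and 3505. The labels do not state that the numbers pair KO with WT arrays. Deviations of same-numbered arrays correlated from 0.00 to 0.16 in eWAT and from -0.06 to 0.11 in liver. The range was 0.01 to 0.22 in BAT and -0.38 to 0.67 in iWAT. In each tissue, 2 WT arrays were closest to the KO array of their own number. These values cannot decide whether the numbers pair, since arrays from different tissues of the same mouse correlated only from -0.15 to 0.30. With the macrophage covariate, estimates past the threshold in eWAT changed sign to 0.15 for *Arntl*, 0.23 for *Npas2* and 0.10 for *Pdk4*. Of the members not past it, *Clock* (0.16), *Per2* (-0.24), *Nr1d2* (-0.44) and *Dbp* (-0.31) changed sign too, and the cause was not tested. In liver the methods' t-test before adjustment called 2 members and 2901 of all 24646 genes. Leaving out any array called 0 members in liver, iWAT and BAT. In those fits 8 to 58 of all genes were higher and 33 to 242 lower in liver. The ranges were 0 to 110 and 0 to 117 in iWAT, and 0 to 18 and 0 to 62 in BAT. Members with a different effect in liver and eWAT numbered 2 without pairing of tissues within a mouse and 1 to 7 with a mouse left out, those in eWAT and BAT 0 and 0 to 5, and those in eWAT and iWAT 0 to 2. The score differences moved to -0.28 in eWAT and -0.51 in liver with the macrophage covariate, and by less than the pooled SD within groups in the other alternatives run. Of the values not past the threshold, 18 changed sign in at least 1 alternative, 55 times in all. Arrays of 4 mice, collected once, limit all these values.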
